A study of Mus musculus with 4 samples.

Results

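Open chromatin sites of mouse intestinal organoids were examined that were called as peaks both with and without added BMP2. They passed a strict calling threshold only in the library without added BMP2, which was also kept in a different medium. There were 2142 such sites among 19820 strict peaks of the 0 h library on chromosomes 1 to 19 and X, or 10.8% of them. Both libraries together held 44950 strict peaks on all sequences. The sites were chosen by the peak calls of both libraries: a strict 0 h peak (p-value threshold 1e-10) had to be overlapped by at least 1 bp of a lenient 72 h peak (1e-05) and by no strict 72 h peak. They are called 0 h-strict sites below. The mirror class held 3571 72 h-strict sites, 14.3% of 24932 strict 72 h peaks. A further 16410 strict 0 h peaks were overlapped by a strict 72 h peak and are called strict in both. All of these numbers follow from the rule and are a description, not a finding. The deposited lists hold no score or p-value per peak, so how close a site lay to either threshold is unknown.

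The organoids were grown from jejunal crypts (C57BL/6J, proximal part of the small intestine) in a basement membrane matrix and profiled by ATAC-seq, in which the Tn5 transposase cuts accessible DNA. The 72 h organoids were kept for 72 h in medium with mEGF and R-spondin, without CHIR99021, valproic acid and Noggin, and with 100 ng/mL recombinant BMP2. The 0 h organoids stayed in medium with CHIR99021 (which activates Wnt signalling by inhibiting GSK3), valproic acid (a histone deacetylase inhibitor), mEGF, Noggin (a BMP antagonist) and R-spondin, without added BMP2. BMP2 therefore cannot be told apart from the removal of these 3 agents. Sex and age are not given, and 24 h and 48 h samples were not analysed here. Each time is 1 library of 30000 cells with no replicate, so no p-value across samples can be had. The intervals below are exact Clopper-Pearson 95% intervals and cover counting error only. For a count of 0 the limit given is 3 counts of the total, which is slightly below the exact upper bound. The lists hold no read counts, so the depth of each library is unknown. At the lenient threshold 41036 peaks were listed at 72 h and 35627 at 0 h on these chromosomes. Genes of the intestinal epithelium carried peaks in both libraries, with 5 at 72 h and 4 at 0 h for Vil1 (villin, of the microvillus core) and 10 at 72 h and 9 at 0 h for Cdh1 (E-cadherin). Of 8 immune marker genes 3 had a peak in either library, against 22 of 23 brush border genes. Peaks also lay at 8 of 10 fibroblast and muscle genes and 7 of 9 endothelial genes, so most markers of these other cell types had a peak too.

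In the small intestine, Wnt signals at the crypt base keep stem cells dividing, through TCF factors and beta-catenin at genes such as Myc, Ccnd1, Axin2 and Sp5. BMP signals act through SMAD factors and are stronger along the villus, where enterocytes mature. A promoter is the stretch around a gene's start; many promoters, above all those of widely expressed genes, are rich in CpG dinucleotides, whereas tissue-specific control often lies in distal enhancers.

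The promoters below are those of genes from the stem cell, Notch and BMP lists whose listed start was covered by a 0 h-strict site. They are shown because the results turn on gene starts of this kind. Each is a RefSeq promoter of GRCm38.p6, known as mm10, 250 bases before to 50 after the start, 5′ to 3′ on the gene's strand. Capitals mark any of the 12 motifs searched, on either strand. Bmi1, a Polycomb group gene, is at chr2:18676768-18677067 on the plus strand. Prom1, encoding the membrane protein prominin-1, is at chr5:44101687-44101986 on the minus strand. Sp5, a zinc finger factor and direct Wnt target, is at chr2:70474673-70474972 on the plus strand. Jag2, a Notch ligand, is at chr12:112929446-112929745 on the minus strand. Tgif1, a SMAD corepressor, is at chr17:70851685-70851984 on the minus strand. For Tgif1, 2 listed starts were covered, and the start printed lies inside the gene, downstream of its first start.
Bmi1 promoter: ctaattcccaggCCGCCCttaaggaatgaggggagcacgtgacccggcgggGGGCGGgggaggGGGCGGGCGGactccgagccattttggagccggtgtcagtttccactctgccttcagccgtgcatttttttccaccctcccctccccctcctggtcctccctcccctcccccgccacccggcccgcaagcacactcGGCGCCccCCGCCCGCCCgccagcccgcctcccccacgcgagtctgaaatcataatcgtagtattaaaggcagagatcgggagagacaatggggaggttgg
Prom1 promoter: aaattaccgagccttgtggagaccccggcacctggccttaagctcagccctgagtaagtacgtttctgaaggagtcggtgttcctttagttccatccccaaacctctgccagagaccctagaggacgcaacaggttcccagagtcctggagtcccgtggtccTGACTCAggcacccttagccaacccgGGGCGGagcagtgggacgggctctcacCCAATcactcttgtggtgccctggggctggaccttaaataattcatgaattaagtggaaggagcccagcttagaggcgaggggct
Sp5 promoter: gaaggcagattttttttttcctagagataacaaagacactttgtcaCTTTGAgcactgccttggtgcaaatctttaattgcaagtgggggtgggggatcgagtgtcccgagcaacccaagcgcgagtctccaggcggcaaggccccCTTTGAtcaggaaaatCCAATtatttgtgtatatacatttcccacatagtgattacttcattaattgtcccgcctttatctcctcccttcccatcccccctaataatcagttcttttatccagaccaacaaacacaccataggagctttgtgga
Jag2 promoter: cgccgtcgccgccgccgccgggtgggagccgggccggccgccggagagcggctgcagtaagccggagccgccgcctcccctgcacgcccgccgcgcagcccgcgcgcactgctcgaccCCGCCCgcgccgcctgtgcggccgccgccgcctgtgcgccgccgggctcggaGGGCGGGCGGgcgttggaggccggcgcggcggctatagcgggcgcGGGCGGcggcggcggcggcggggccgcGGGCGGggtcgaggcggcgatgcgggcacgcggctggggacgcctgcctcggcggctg
Tgif1 promoter: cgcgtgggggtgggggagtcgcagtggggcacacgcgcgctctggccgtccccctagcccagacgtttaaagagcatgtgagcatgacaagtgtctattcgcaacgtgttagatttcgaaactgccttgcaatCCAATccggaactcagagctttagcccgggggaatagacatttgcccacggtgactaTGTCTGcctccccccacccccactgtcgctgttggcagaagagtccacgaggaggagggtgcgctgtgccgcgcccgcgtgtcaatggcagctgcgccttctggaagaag

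The Sp5 promoter held CTTTGA, the core of the TCF/LEF motif, at 2 places, and CCAAT (the NF-Y motif) at 1. The Prom1 promoter held TGACTCA, a match to the AP-1 motif TGANTCA. The Bmi1 and Jag2 promoters were dense in GGGCGG, the SP/KLF motif, with 6 and 5 matches, some of them overlapping. Their GC contents were 66.3% and 86.0%, against 45.0% for Sp5. The ratio of observed to expected CpG was 0.71 for Bmi1, 0.41 for Prom1, 0.40 for Sp5, 1.14 for Jag2 and 0.81 for Tgif1. These matches are descriptions of sequence and not evidence that a factor was bound.

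The 0 h-strict sites lay at gene ends more often than the 72 h-strict sites, and less often than sites strict in both. A gene end here is either boundary of a protein-coding gene, within 1 kb of the site's centre. Of the 0 h-strict sites, 661 lay there (30.9%, 28.9 to 32.9), against 512 of the 72 h-strict sites (14.3%, 13.2 to 15.5). Sites strict in both had 57.4% there (56.7 to 58.2). Inside genes and farther from their ends lay 747 0 h-strict sites (34.9%, 32.9 to 36.9) and 1579 72 h-strict sites (44.2%, 42.6 to 45.9). Between genes but within 50 kb of one lay 578 0 h-strict and 1090 72 h-strict sites. Over 50 kb from any protein-coding gene lay 7.28% (6.22 to 8.47) of the 0 h-strict and 10.9% (9.92 to 12.0) of the 72 h-strict sites. Sites of 1 library with no lenient peak in the other had lower gene-end shares than the shared class of the same library, at 21.1% (18.8 to 23.4) of 1268 such strict 0 h peaks and 5.87% (5.20 to 6.60) of 4513 at 72 h.

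**Figure D1:**
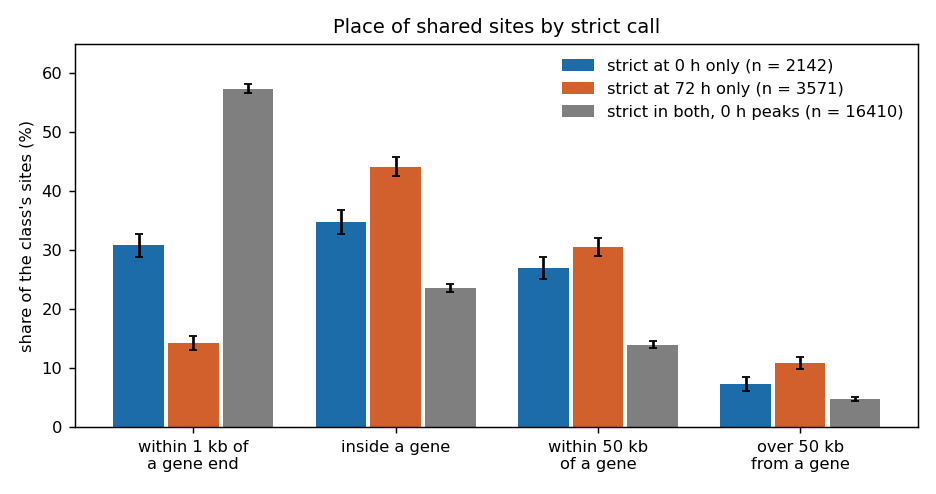
Share of sites (%, vertical axis) at 4 kinds of place for the 2142 0 h-strict sites, the 3571 72 h-strict sites and the 16410 0 h peaks strict in both. Error bars are exact 95% intervals; the gene-end bars stand at 30.9%, 14.3% and 57.4%.

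The share of sites strict at 0 h differed between gene ends and other places. Of the 1173 sites at gene ends that were strict in 1 library only, 56.4% (53.5 to 59.2) were strict at 0 h. Of the 4540 such sites elsewhere, 32.6% (31.3 to 34.0) were. The gene-end value depended on the distance used and on the overlap: it was 47.5% (45.4 to 49.7) with gene ends within 5 kb and 52.6% (50.0 to 55.2) with 300 bp of overlap. The value was 32.1% (30.2 to 34.1) inside genes, 34.7% (32.4 to 37.0) within 50 kb of a gene and 28.6% (24.8 to 32.6) beyond. With the background of each library in view, 11.5% of all shared strict 0 h peaks were 0 h-strict and 17.5% of all shared strict 72 h peaks were 72 h-strict. At gene ends the values were 6.55% (6.08 to 7.05) for 0 h-strict and 5.00% (4.59 to 5.44) for 72 h-strict peaks. Away from gene ends they were 17.5% (16.7 to 18.3) for 0 h-strict and 30.0% (29.1 to 30.9) for 72 h-strict peaks. In both libraries, shared strict peaks at gene ends were thus less often without a strict partner than those elsewhere.

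Gene starts were separated from the far ends of genes with the strand of the RefSeq promoters, which are listed for 17273 of the 21627 protein-coding genes on these chromosomes and for none on chromosome 18. Within 1 kb of a listed start lay 559 of 2082 0 h-strict sites and 425 of 3458 72 h-strict sites, so that 56.8% (53.6 to 59.9) of these sites were strict at 0 h. Within 1 kb of the far end of a gene, and not of a start, lay 33 0 h-strict and 71 72 h-strict sites, of which 31.7% (22.9 to 41.6) were strict at 0 h. A further 170 0 h-strict and 115 72 h-strict sites lay at gene ends that matched neither a listed start nor a far end so defined. Centres of 0 h-strict sites near a start fell within 150 bp of it in 62.3% of cases (58.1 to 66.3), against 50.6% (45.7 to 55.4) for 72 h-strict sites and 74.9% (73.9 to 75.8) for sites strict in both. By distance, the share strict at 0 h was 60.7% of 488 sites under 0.1 kb from a start, 59.1% (52.2 to 65.7) from 0.1 to 0.3 kb and 48.2% (42.2 to 54.2) from 0.3 to 1 kb. It was 36.3% (30.9 to 42.0) from 1 to 3 kb and lay between 31.4% and 34.3% in the 4 bins beyond.

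**Figure D2:**
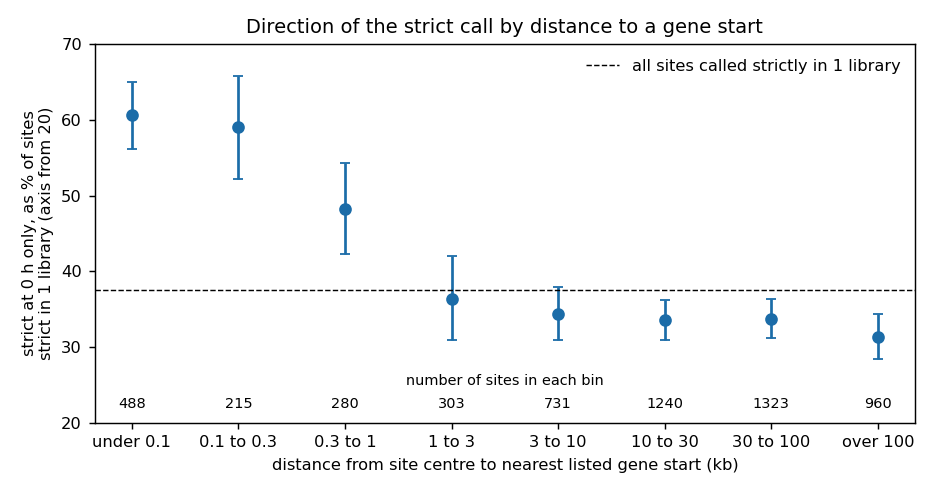
Sites strict at 0 h only as a share (%, vertical axis starting at 20) of shared sites strict in 1 library, by distance in kb from the site's centre to the nearest listed gene start, with exact 95% intervals and the number of sites in each bin. The share was 60.7% in the nearest bin and 31.4% in the farthest; the dashed line is the value over all sites, 37.5%.

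The 2 calls of a site lay close together. The centre of a 0 h-strict site was a median of 32 bp from the centre of its lenient 72 h peak, with quartiles of 13 and 65 bp. For 72 h-strict sites the median was 30 bp and for sites strict in both 24 bp. An offset over 150 bp was seen at 146 0 h-strict sites (6.82%, 5.79 to 7.97) and 250 of the 3571 72 h-strict sites. A strict 72 h peak lay within 1 kb of 244 0 h-strict sites (11.4%, 10.1 to 12.8), although none overlapped them, and a strict 0 h peak lay within 1 kb of 351 72 h-strict sites (9.83%, 8.87 to 10.9). Members are not all separate: 94 shared a lenient 72 h peak with another, and merging overlapping ones left 2095 sites.

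The promoters under 0 h-strict sites were richer in CpG than those under 72 h-strict sites. Listed starts were covered by 0 h-strict sites at 456 promoters of 425 genes, by 72 h-strict sites at 305 promoters of 280 genes, and by sites strict in both at 8421 promoters. The median ratio of observed to expected CpG was 0.73 for promoters under 0 h-strict sites, 0.51 under 72 h-strict sites, 0.82 under sites strict in both and 0.57 over all 21044 listed promoters. A ratio over 0.6 was held by 72.1% (67.8 to 76.2) under 0 h-strict sites, 42.6% (37.0 to 48.4) under 72 h-strict sites, 84.0% (83.2 to 84.8) under sites strict in both and 48.1% (47.4 to 48.8) of all. Median GC was 62.8% for 0 h-strict, 55.0% for 72 h-strict and 62.7% for strict in both. Counted by promoter, 329 of CpG-rich starts were under a 0 h-strict and 130 under a 72 h-strict site, so that 71.7% (67.3 to 75.8) were strict at 0 h. For promoters with a ratio of 0.6 or less the numbers were 127 under 0 h-strict and 175 under 72 h-strict sites, or 42.1% (36.4 to 47.8). Sites strict in both covered 7077 CpG-rich starts and 1344 of the others. With these counted in, 0 h-strict sites covered 4.44% (3.98 to 4.94) of CpG-rich starts and 8.63% (7.25 to 10.2) of the others. For 72 h-strict sites the intervals were 1.51% to 2.14% and 9.96% to 13.2%. In both libraries, CpG-rich starts under shared strict sites were thus less often without a strict partner.

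**Figure D3:**
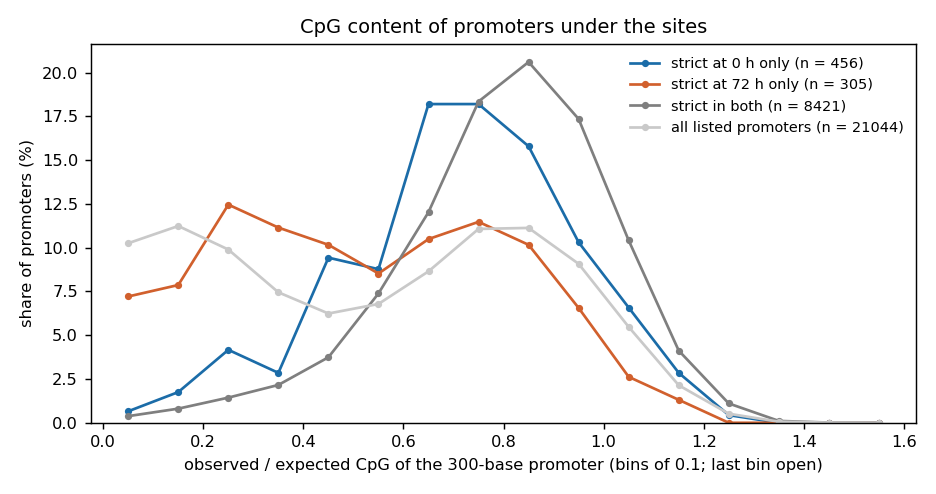
Distribution (% of promoters, vertical axis) of the observed to expected CpG ratio of 300-base RefSeq promoters whose start was covered by 0 h-strict sites (456), 72 h-strict sites (305) or sites strict in both (8421), beside all 21044 listed promoters. The 0 h-strict line peaks between 0.6 and 0.8, and the 72 h-strict line is highest between 0.2 and 0.3; the medians are 0.73 and 0.51.

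Of the 12 motifs, those of SP/KLF, NRF1 and the GC-rich SMAD form were more frequent under 0 h-strict than under 72 h-strict sites, with intervals that did not overlap. Under sites strict in both they were at 73.2%, 4.68% and 24.0%. Each of these motif sequences contains a CpG, and the promoter classes differed in CpG content (median ratio 0.73 for 0 h-strict and 0.51 for 72 h-strict). Whether the motifs differed beyond that was not tested. For HNF4 and CDX the intervals of the classes overlapped. GGGCGG, the SP/KLF box, was in 65.6% (61.0 to 69.9) of promoters under 0 h-strict sites, 43.6% (38.0 to 49.4) under 72 h-strict sites and 46.7% of all listed promoters. GGCGCC, a GC-rich SMAD motif, was in 25.9% (21.9 to 30.2) under 0 h-strict and 14.4% (10.7 to 18.9) under 72 h-strict sites, beside 15.5% of all. GCGCATGCG, the NRF1 motif, was in 18 of the 456 promoters under 0 h-strict sites and 1 of the 305 under 72 h-strict sites, beside 2.37% of all. CAAAGTCCA, bound by HNF4 factors of enterocytes, was in none of the 456, which allows a share of up to 0.658% (exact upper bound 0.806%), and in 6 of the 305 (1.97%, 0.725 to 4.23); it was in 0.456% of all listed promoters. TTTATGG, a CDX motif, was in 1.10% (0.357 to 2.54) under 0 h-strict and 4.26% (2.29 to 7.18) under 72 h-strict sites, beside 2.28% of all. Relative to sites strict in both, promoters under 0 h-strict sites less often held CCAAT, at 30.7% (26.5 to 35.2) against 41.6% (40.6 to 42.7), and CCGGAAG, the ETS motif, at 12.5% (9.61 to 15.9) against 22.5% (21.7 to 23.4). For 72 h-strict sites CCAAT was at 38.7% (33.2 to 44.4) and CCGGAAG at 18.7% (14.5 to 23.5), and over all listed promoters at 38.5% and 11.7%. CTTTGA was in 9.87% (7.29 to 13.0) of promoters under 0 h-strict sites, 15.4% (11.5 to 20.0) under 72 h-strict sites and 14.4% of all. The AP-1 motif TGANTCA was in 5.70% (0 h-strict) and 5.90% (72 h-strict), beside 7.04% of all. The SMAD box CAGACA was in 12.7% (0 h-strict) and 16.1% (72 h-strict), beside 18.5% of all. A GATA motif, spelled AGATAAG, was in 1.97% (0 h-strict) and 2.62% (72 h-strict), beside 2.63% of all. The SMAD palindrome GTCTAGAC was in 1 promoter of each class and in 0.228% of all. Both strands were searched, and the TCF/LEF and HNF4 motifs can share bases.

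The 0 h-strict sites were assigned to 1750 protein-coding genes, 11.8% of the 14864 genes with a peak, by the gene that holds the site or lies nearest within 50 kb. The 72 h-strict sites were assigned to 2567 genes (17.3%), and 425 genes (2.86%) had sites of both classes. Most genes had a single 0 h-strict site (1540), 186 had 2 and 24 had 3 or more. After overlapping sites were merged, 13 genes had 3 or more 0 h-strict sites, against 76 genes with 3 or more 72 h-strict sites. Genes with a 0 h-strict site had a median length of 35.4 kb and a median of 3 merged peaks, those with a 72 h-strict site had 38.3 kb and 4, and all genes with a peak had 23.8 kb and 2. Genes with more peaks have more chances to hold a site of either class, so counts of strict peaks are given beside counts of genes for most lists.

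The genes with the most 0 h-strict sites included cell cycle and transcription factor genes. Sfi1, encoding a centrosomal protein, had 4, beside 5 72 h-strict sites and 30 lenient peaks at 72 h and 34 at 0 h. Zfhx3, a large homeobox factor gene, had 4 (3 after merging), all at least 246 kb inside the gene. Genes with 3 each included Ccnd1 (cyclin D1), Irx4 (a homeobox factor), Bcor (a transcriptional corepressor, on chromosome X), Prkag2 (a regulatory subunit of AMP-activated kinase), Hunk (a kinase), Scn8a (a sodium channel), Sorcs2 (a sorting receptor) and 1110051M20Rik. At Bcor strict peaks numbered 2 at 72 h and 7 at 0 h, and at Sorcs2 2 at 72 h and 5 at 0 h. At Prkag2 they numbered 6 in each library, and the gene also had 2 72 h-strict sites. At Hunk they numbered 2 at 72 h and 4 at 0 h, and the gene also had 1 72 h-strict site. At Irx4 the 3 sites ran from 9.34 to 30.9 kb beyond the gene's start, the last 2 of them outside the gene. At Scn8a 2 of the 3 sites lay 0.807 and 3.48 kb inside the start.

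Stem cell and Wnt target genes held 0 h-strict sites at 12 of 28 members, all 28 of which had a peak (42.9%, 24.5 to 62.8), and 72 h-strict sites at 8 (28.6%, 13.2 to 48.7). Over all genes with a peak the shares were 11.8% for 0 h-strict and 17.3% for 72 h-strict sites. The listed genes had a median of 4 merged peaks, against 2 over all genes with a peak. That gives them more chances to hold a site of either class. The list and the interest in it came with earlier results of these data known, and no test of the list was made. Counted by peak, 20 of the 72 strict 0 h peaks at these genes were 0 h-strict (27.8%, 17.9 to 39.6), beside the 10.8% of all strict 0 h peaks. Of the 61 strict 72 h peaks at these genes, 11 were 72 h-strict, with an interval of 9.36% to 30.0%, beside 14.3%. At gene ends, 10 of the 25 shared strict 0 h peaks of these genes were 0 h-strict (40.0%, 21.1 to 61.3), beside 6.55% over all genes. They include overlapping pairs at Myc and Sp5. None of the 13 shared strict 72 h peaks there was 72 h-strict, which allows up to 23.1%. Away from gene ends 10 of 38 shared strict 0 h peaks were 0 h-strict (26.3%, 13.4 to 43.1), and 11 of 40 shared strict 72 h peaks were 72 h-strict (27.5%, 14.6 to 43.9).

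**Figure D4:**
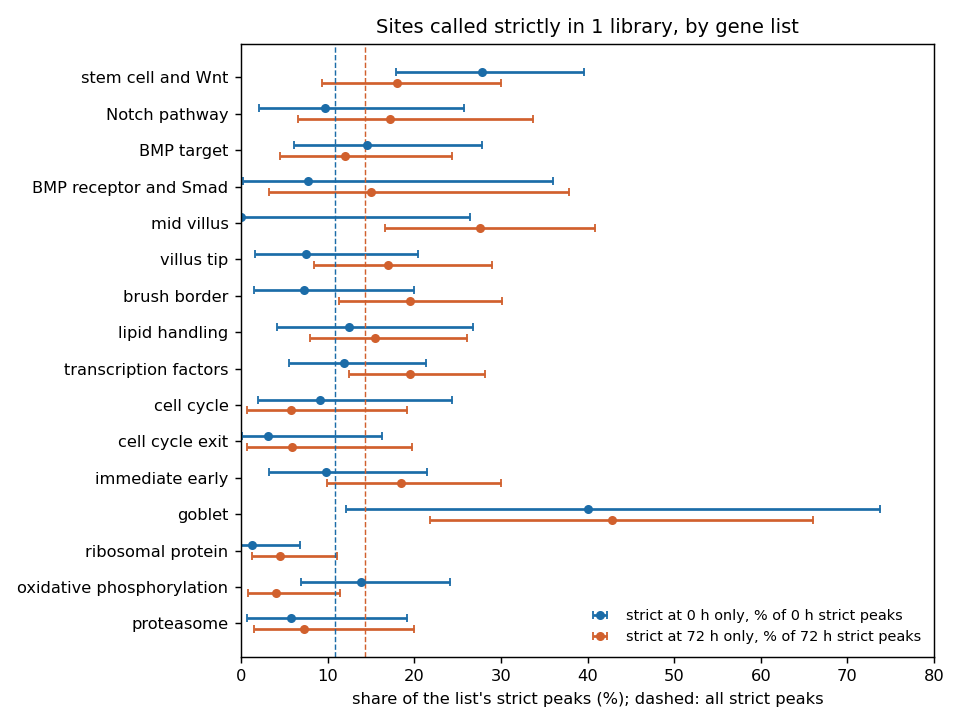
Share of strict peaks (%, horizontal axis) at the genes of each list that were 0 h-strict (of strict 0 h peaks) or 72 h-strict (of strict 72 h peaks), with exact 95% intervals, for the lists with at least 10 strict 0 h peaks. Dashed lines mark all strict peaks, 10.8% and 14.3%; stem cell and Wnt genes stand at 27.8% for 0 h-strict and mid-villus genes at 0.

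Ccnd1, which drives entry into the cell cycle, had 1 strict peak at 72 h and 4 at 0 h, while lenient peaks numbered 5 in each library. Its 0 h-strict sites were at chr7:144937395-144937995, 2.14 kb inside a gene end, at chr7:144941427-144942027, 1.896 kb outside, and at chr7:144971150-144971750, 31.6 kb outside. Myc, the growth-promoting factor, had 2 strict peaks at 72 h and 5 at 0 h, with 6 lenient peaks at 72 h and 7 at 0 h. Its 3 0 h-strict sites formed 2 after merging. One was at chr15:61983196-61983796, 1.85 kb outside the gene, and the overlapping pair crossed the gene's boundary at chr15:61984887-61985487 and chr15:61985142-61985742.

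Sox9, a factor of crypt progenitors and Paneth cells, had no strict peak at 72 h and 2 at 0 h, with 3 lenient peaks at 72 h and 5 at 0 h. Both strict peaks were 0 h-strict, 1 at the gene boundary (chr11:112781858-112782458, centred 0.052 kb outside) and 1 centred 41.0 kb away. Lef1, a TCF family factor, likewise had no strict peak at 72 h and 2 at 0 h, with 3 lenient peaks in each library. Its sites were centred 4.11 kb before and 2.12 kb after the gene's start on chromosome 3. Smoc2, a matricellular protein of stem cells, had 1 strict peak at 72 h and 3 at 0 h. Its 0 h-strict sites were centred 6.00 kb and 0.020 kb outside the gene on chromosome 17.

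Sp5 had 2 strict peaks at 72 h and 3 at 0 h. Its overlapping 0 h-strict sites, chr2:70474215-70474815 and chr2:70474807-70475407, were centred 0.408 kb before and 0.184 kb after the start, over the promoter printed above. A 72 h-strict site lay 1.15 kb after the start, inside the gene, and a strict peak called in both libraries lay further along, centred 1.797 kb (72 h) and 1.845 kb (0 h) from the gene's lower-coordinate boundary. Axin2, a negative feedback regulator of Wnt signalling, also had both kinds, with the 0 h-strict site 6.63 kb and the 72 h-strict site 10.8 kb before the start. Prom1 had its 0 h-strict site at the start and its 72 h-strict site 104 kb downstream of it, inside the gene. Ascl2, the crypt base factor, had 1 strict peak at 72 h and 4 at 0 h. Of those 4, 1 was 0 h-strict and 2 had no 72 h peak at all. The remaining genes had 1 site each. Bmi1 and Msi1 (an RNA-binding protein of progenitors) had theirs within 1 kb of a gene end and no strict peak at 72 h. Lrig1, a brake on growth factor receptors, had its site 23.7 kb inside the gene. Among the genes without a 0 h-strict site were Lgr5, Rnf43 and Znrf3, and genes with 72 h-strict sites alone included Olfm4, Cd44, Ephb2 and Tcf7l2. These 7 genes were named here after their values were seen. Lgr5, a receptor for R-spondins, had 4 strict peaks at 72 h and 3 at 0 h.

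**Figure D5:**
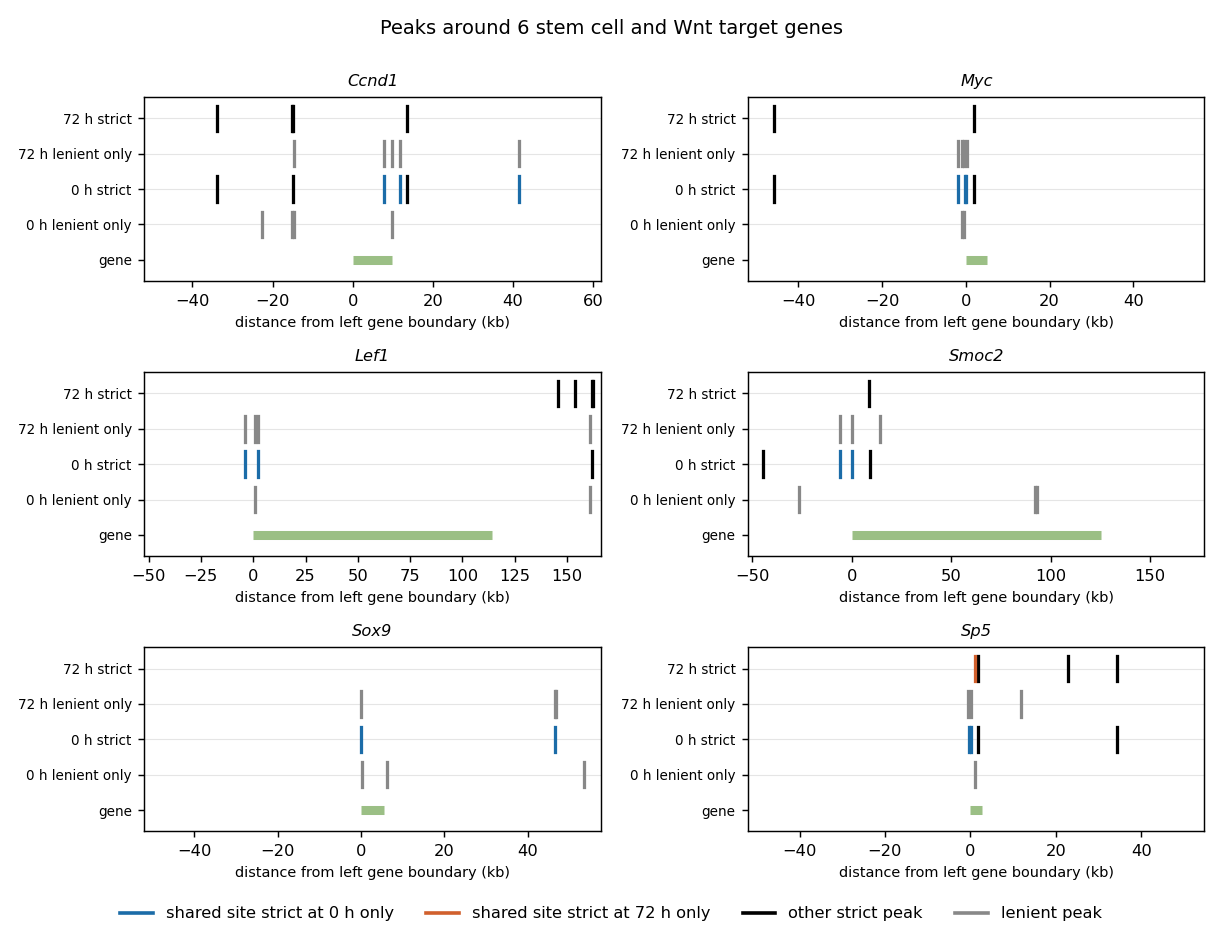
Peaks around the 6 stem cell and Wnt genes with at least 2 0 h-strict peaks, by distance in kb from the gene's lower-coordinate boundary, with 72 h rows above 0 h rows and strict rows above lenient-only rows. Blue ticks are 0 h-strict sites, the orange tick at Sp5 is a 72 h-strict site, black ticks are other strict peaks and the green bar is the gene; peaks assigned to neighbouring genes are drawn too. At Sox9 and Lef1 no strict 72 h peak lay within 10 kb of the gene boundary drawn at 0.

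Among enterocyte genes, the mid-villus list stood furthest from the shares over all genes, where 11.8% of genes with a peak had a 0 h-strict and 17.3% a 72 h-strict site. None of the 17 mid-villus genes had a 0 h-strict site, which allows up to 17.6%, and 10 had a 72 h-strict one. These genes had 58 strict peaks at 72 h and 12 at 0 h, so few of their peaks could have been 0 h-strict. Of the 12, none was, which allows up to 25% of them. Of the 58 strict 72 h peaks 16 were 72 h-strict (27.6%, 16.7 to 40.9), beside 14.3% of all strict 72 h peaks. Brush border genes had 0 h-strict sites at 3 of 22 members with a peak (Eps8, Pls1 and Vil1, all of the microvillus core) and 72 h-strict sites at 10. By peak, 3 of 41 strict 0 h peaks were 0 h-strict (7.32%, 1.54 to 19.9), and 15 of 77 strict 72 h peaks were 72 h-strict (19.5%, 11.3 to 30.1), with intervals that include the values over all peaks. Lipid handling genes had 4 of 27 with a 0 h-strict site and 9 with a 72 h-strict one. By peak, 5 of 40 strict 0 h peaks were 0 h-strict (12.5%, 4.19 to 26.8) and 11 of 71 strict 72 h peaks were 72 h-strict (15.5%), near the values over all peaks. Genes with a 0 h-strict site included Ppara (a nuclear receptor of fatty acid oxidation, with 2 sites 32.2 and 49.8 kb before its start), Dgat2 (triglyceride synthesis) and Plin2 (a lipid droplet protein). The Plin2 site covered its start, and the gene's 72 h-strict site lay 13.6 kb downstream. Villus-bottom genes had 1 of 13 (Plb1, a brush border phospholipase) with a 0 h-strict site and 4 with a 72 h-strict one, from 1 of 7 strict 0 h and 5 of 21 strict 72 h peaks. Villus-tip genes had 2 of 19 (Cdh1 with 2 sites and Atf3 with 1) with a 0 h-strict site and 6 with a 72 h-strict one. By peak these were 3 of 40 strict 0 h peaks (interval 1.57% to 20.4%) and 10 of 59 strict 72 h peaks (16.9%, 8.44 to 29.0), with intervals that include the values over all peaks.

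BMP target genes had 0 h-strict sites at 4 of 16 members and 72 h-strict sites at 5. Over all genes with a peak the shares were 11.8% for 0 h-strict and 17.3% for 72 h-strict sites. The BMP target genes had a median of 5 merged peaks, against 2 over all genes with a peak, and so more chances to hold either class. By peak, 7 of 48 strict 0 h peaks were 0 h-strict (14.6%, 6.07 to 27.8) and 6 of 50 strict 72 h peaks were 72 h-strict, beside 10.8% and 14.3% over all peaks. Tgif1 had 3 0 h-strict sites, 0.353, 1.79 and 2.27 kb after its first start, and 1 72 h-strict site outside the gene. The last 2 of the 0 h-strict sites overlap, so that 2 remained after merging. Atoh8, a bHLH factor, had 2 0 h-strict sites, no strict peak at 72 h and 2 at 0 h. Id2, an inhibitor of bHLH factors, had 1, 0.897 kb outside the far end of the gene, with 2 strict peaks at 72 h and 3 at 0 h. Pmepa1, a feedback inhibitor of SMAD signalling, had 1 site of each class inside the gene. Id1, Smad6 and Smad7, named after their values were seen, had 72 h-strict sites alone, with 5, 5 and 7 strict peaks at 72 h against 3, 3 and 5 at 0 h. Of the 10 receptor and Smad genes, Smad9 alone had a 0 h-strict site, 41.9 kb after its start, and 2 had a 72 h-strict one. These counts too stand beside 11.8% and 17.3% of all genes with a peak. By peak these were 1 of 13 strict 0 h and 3 of 20 strict 72 h peaks.

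Intestinal transcription factor genes had 0 h-strict sites at 6 of 30 members and 72 h-strict sites at 15. Over all genes with a peak the shares were 11.8% for 0 h-strict and 17.3% for 72 h-strict sites. The listed genes had a median of 5.5 merged peaks, against 2 over all genes with a peak, and so more chances to hold either class. By peak, 9 of 76 strict 0 h peaks were 0 h-strict (11.8%, 5.56 to 21.3) and 21 of 108 strict 72 h peaks were 72 h-strict (19.4%, 12.5 to 28.2). These intervals include the values over all peaks, 10.8% and 14.3%. Foxa2, a pioneer factor, had an overlapping pair 49.3 and 49.8 kb outside the gene and no strict peak at 72 h. Gata4, a factor of proximal intestinal identity, had 1 0 h-strict site, at a gene boundary, and 4 72 h-strict ones. Klf5 (a factor of proliferating crypt cells) and Nr5a2 (a nuclear receptor of crypt cells) had 1 0 h-strict site each inside the gene. They also had 1 and 2 72 h-strict sites, and each gene had 4 strict peaks at 72 h and 3 at 0 h.

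Of the genes that most cells use, oxidative phosphorylation genes had 0 h-strict sites at 10 of 71 members with a peak and 72 h-strict sites at 3. For this list and the next 2, the shares over all genes with a peak were 11.8% for 0 h-strict and 17.3% for 72 h-strict sites. By peak, 10 of 72 strict 0 h peaks were 0 h-strict (13.9%, 6.87 to 24.1), near the 10.8% of all strict 0 h peaks, and 3 of 74 strict 72 h peaks were 72 h-strict (4.05%, 0.844 to 11.4), beside 14.3% of all. Of the 10 sites 6 were at gene ends, such as those of Atp5l and Atp5j2, both subunits of ATP synthase. Atp5g2 and Atp5mpl had theirs 2.87 kb inside a gene end and 24.4 kb outside the gene. Ribosomal protein genes had 1 of 67 with a 0 h-strict site (Rpl14, 28.3 kb outside the gene) and 3 with a 72 h-strict one. By peak these were 1 of 79 strict 0 h and 4 of 89 strict 72 h peaks. At their gene ends none of 66 shared strict 0 h peaks was 0 h-strict, which allows up to 4.55%. None of 73 shared strict 72 h peaks there was 72 h-strict, which allows up to 4.11%. At the ends of all genes these shares were 6.55% and 5.00%. Proteasome genes had 2 of 32 with a 0 h-strict site (Psma6 and Psmb7), both outside the gene and neither at a gene end, or 2 of 35 strict 0 h peaks. Of their 41 strict 72 h peaks 3 were 72 h-strict.

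The other lists held few sites, and their counts of genes stand beside 11.8% of all genes with a peak for 0 h-strict and 17.3% for 72 h-strict sites. Notch pathway genes had 3 of 19 with a 0 h-strict site and 5 with a 72 h-strict one, from 3 of 31 strict 0 h and 6 of 35 strict 72 h peaks. Besides Jag2 the 3 were Notch1, a receptor, and Mfng, a glycosyltransferase that modifies Notch receptors. Immediate early genes had 5 of 18 against 7, among them Fosb, Fosl2, Ier2 and Atf3, of which the first 3 also had a 72 h-strict site. Cell cycle genes had 3 of 23 (Ccne1, Mki67 and Tyms, thymidylate synthase, whose start was covered) against 2, from 3 of 33 strict 0 h and 2 of 35 strict 72 h peaks. Cell cycle exit genes had 1 of 15 (Gadd45g) against 2, from 1 of 32 strict 0 h and 2 of 34 strict 72 h peaks. Goblet cell markers had 3 of 12 (Fcgbp with 2 sites, 1 of them over the start, and Creb3l1 and Zg16 with 1 each) against 7, from 4 of 10 strict 0 h and 9 of 21 strict 72 h peaks. Paneth markers had 1 of 5 (Nupr1) against none, tuft markers 1 of 8 (Ptgs1) against 2, and enteroendocrine markers none of 13 in either class. These 3 lists had 5, 5 and 3 strict peaks at 0 h. Of other cell types, fibroblast and muscle genes had 1 of 8 (Col1a1, with 2 sites outside the gene) against 1, endothelial genes 1 of 7 (Vwf) against none, and immune genes none of 3 in either class. These 3 lists had 5, 7 and 3 strict peaks at 0 h. In the largest of these lists by strict peaks, the immediate early genes, 5 of 51 strict 0 h peaks were 0 h-strict (9.80%, 3.26 to 21.4) and 12 of 65 strict 72 h peaks were 72 h-strict (18.5%, 9.92 to 30.0), with overlapping intervals.

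Some genes carried both classes repeatedly: 23 genes had at least 2 sites of each. Sfi1 and Zfhx3 were among them, followed by Pde4d (a phosphodiesterase gene spanning 1302 kb) with 2 0 h-strict and 6 72 h-strict sites. Sh3rf1 had 2 0 h-strict and 4 72 h-strict sites, and Etl4 and Hcfc2 each had 2 0 h-strict and 3 72 h-strict ones. At Pde4d the strict peaks numbered 14 at 72 h and 7 at 0 h. At Hcfc2 the 0 h-strict sites lay 2.79 and 16.2 kb outside the gene and the 72 h-strict ones inside it.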

How the data were processed

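The files are lists of peaks from ATAC-seq of the 72 h and 0 h libraries. The submitters' processing notes name MACS2 2.2.7.1 (a peak caller), the aligner Bowtie2 2.4.1, the trimmer cutadapt 1.9.1, and bedtools 2.26.0, deepTools 3.5.4, Picard 2.18.27 and SAMtools 1.3.1, with the build mm10. Their settings, including any shift for the Tn5 cut, are not given in the sources used. Per the deposited files, peaks were called per library at p-value thresholds of 1e-05 and 1e-10, and every member spans 601 bp, 300 bp to each side of a summit. The deposited rows hold positions and names without a count, score or signal.

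Overlaps of at least 1 bp, gene assignment (the gene holding the centre, or the nearest within 50 kb) and intervals were computed with Python 3.11.15, numpy 2.4.6, pandas 2.3.3 and SciPy 1.17.1, and checked on simulated peaks; figures used matplotlib 3.10.9. Genes come from a RefSeq table of GRCm38.p6. Coordinates are 1-based. The members and the 23 gene lists were chosen with earlier results of these data known. Named genes are the 12 with the most merged 0 h-strict sites, up to 4 per list (every one in the stem cell and Wnt, both BMP and the transcription factor lists), and 6 with the most sites of both classes; others are marked, and some genes that the rule names are not reported here. The split of gene ends by strand, the split by CpG ratio and the values without chromosome X were added after the data were seen. An intended share of peaks with several summits could not be had, since peak names carry no sub-peak letter.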

Additional observations from a re-analysis of the deposited data

Results flagged for a closer look

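Outside chromosomes 1 to 19 and X, on chromosome Y and unplaced sequences, the same overlap rule gave 15 0 h-strict sites among 90 strict 0 h peaks and 16 72 h-strict sites among 108 strict 72 h peaks. On chromosomes 1 to 19 and X, 10.8% of strict 0 h peaks were 0 h-strict and 14.3% of strict 72 h peaks were 72 h-strict. The sites outside these chromosomes are flagged because they are used in no comparison above. Of the 15 and 16 sites, 5 0 h-strict and 8 72 h-strict ones lay on chromosome Y.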

How the results depend on the processing

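The share of gene-end sites among 0 h-strict sites, 30.9%, became 32.9% when 300 bp of overlap was required, 24.6% with gene ends within 500 bp, 48.1% within 5 kb, 39.0% with the ends of every gene in the table and 26.8% with listed gene starts alone. The 0 h share of sites strict in 1 library at gene ends, 56.4%, became 52.6% with 300 bp of overlap, 59.9% within 500 bp, 47.5% within 5 kb and 52.4% with every gene. In each of these it stayed above the share elsewhere, which ran from 31.3% to 33.4%. Counting every gene within 50 kb gave 4478 genes with a 0 h-strict site in place of 1750, 17 stem cell and Wnt genes in place of 12, and 2 mid-villus genes in place of none. The stem cell and Wnt count ran from 10, with no strict 72 h peak within 1 kb, to 17. Of 276 alternative list counts 48 moved by over 1.5 times. No paired analysis was possible because each time is 1 library. Unknown depth and unknown peak scores limit every value: a site may pass the strict threshold in 1 library by a small margin.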

Other observations

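Chromosome X had the highest share of sites strict at 0 h of the 20 chromosomes, an observation made after the data were seen. It held 55 0 h-strict and 41 72 h-strict sites, so that 57.3% (46.8 to 67.3) of the sites strict in 1 library were strict at 0 h, against 37.2% (35.9 to 38.4) on chromosomes 1 to 19. Among chromosomes 1 to 19 the share ran from 30.8% on chromosome 14 to 43.7% (37.4 to 50.1) on chromosome 15, whose interval overlaps that of X, as do those of chromosomes 19 (36.2 to 50.4) and 12 (34.1 to 47.0). At gene ends on X there were 31 0 h-strict and 11 72 h-strict sites, or 73.8% (58.0 to 86.1), against 55.7% (52.8 to 58.6) on the others. Away from gene ends there were 24 0 h-strict and 30 72 h-strict sites, or 44.4% (30.9 to 58.6), against 32.5% (31.1 to 33.9). Lenient peaks on X numbered 662 at 72 h and 630 at 0 h, and strict ones 397 at 72 h and 382 at 0 h. No single gene carried the count: Bcor had 3 sites and L1cam, a cell adhesion gene, an overlapping pair. The Bcor sites were not at gene ends. Genes with a site at an X-linked gene end included Ndufa1 (a subunit of respiratory complex I), Rbmx (an RNA-binding protein) and Slc25a5 (an ADP/ATP carrier). The genes other than Bcor were named after their values were seen. The intervals of X and the other chromosomes overlap in both places. No test of the difference between chromosomes was made.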
